A study of Homo sapiens with 2 samples.

Results

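ETS1, FLI1 and ERG are transcription factors of the ETS family, and the peaks called for UTX and for TAL1 around their genes are described here. The loci were taken as 3 windows of the hg19 build: chr11:128300000-128520000 for ETS1, chr11:128520001-128700000 for FLI1 and chr21:39730000-40060000 for ERG. Every peak with at least 1 base in a window was a member, which gave 19 of the 17396 UTX peaks and 9 of the 2678 TAL1 peaks, or 28 of 20074 peaks in all. The members were chosen by their positions in the 2 lists, the same values that are described below, and the loci were picked with results of these lists known, so the counts in the windows are descriptions and carry no test.

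The UTX peaks came from chromatin immunoprecipitation with sequencing (ChIP-seq) in Jurkat, a human cell line established from a T cell acute lymphoblastic leukaemia (T-ALL) and grown here without treatment. The series held 1 library made with 2 anti-UTX antibodies (a home-made one, 9838P, mixed with A302-374A) and 1 mock library made with an isotype IgG, both from this line. No peaks of the mock library were analysed here. The TAL1 peaks were drawn from a previous study, and the cells used there are not stated in these sources. Both lists give positions only, so depth and enrichment are unknown, width is the only measure of size, and there are no replicates. The build of the TAL1 list is not stated. It was taken as hg19, since 2163 peaks of the whole TAL1 list overlapped UTX as deposited, against 75 to 339 when the list was moved by 500 bases to 2 kb either way.

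ETS factors bind DNA at a core GGAA sequence through a conserved ETS domain. ETS1 acts in T cell development, FLI1 in blood stem cells and megakaryocytes, and ERG in the maintenance of blood stem cells, where FLI1 and ERG are known to share many enhancers with TAL1, LYL1, LMO2, GATA2 and RUNX1. UTX, encoded by KDM6A, demethylates histone H3 at lysine 27 and is a subunit of the enhancer complexes that hold the methyltransferases KMT2C and KMT2D. TAL1, a basic helix-loop-helix factor, binds E-box motifs together with E proteins, in a complex with LMO and GATA factors, and is switched on abnormally in part of all T-ALL cases. In the RefSeq order of protein-coding genes (GRCh38.p14 table, used for order only), ETS1 and FLI1 are next to each other on chromosome 11 between KIRREL3 and KCNJ1. In the same order, ERG lies on chromosome 21 between KCNJ15 and ETS2. An hg19 annotation was not used here, so whether a peak is at a promoter, in an intron or between genes was not determined.

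All 3 loci carried TAL1 peaks, and each of these lay entirely inside a UTX peak, as 72.9% of the whole TAL1 list did. At least 1 base in UTX was found for 80.8% of that list. The ETS1 window held 8 UTX and 3 TAL1 peaks, the FLI1 window 8 and 4, and the ERG window 3 and 2. The arrangement differed between the loci. At ETS1 all the TAL1 peaks sat in a single spot of 2.53 kb, at FLI1 they formed 2 pairs 48.2 kb apart, and at ERG both TAL1 peaks and all the UTX peaks were confined to 2.77 kb of the 330 kb examined.

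**Figure D1:**
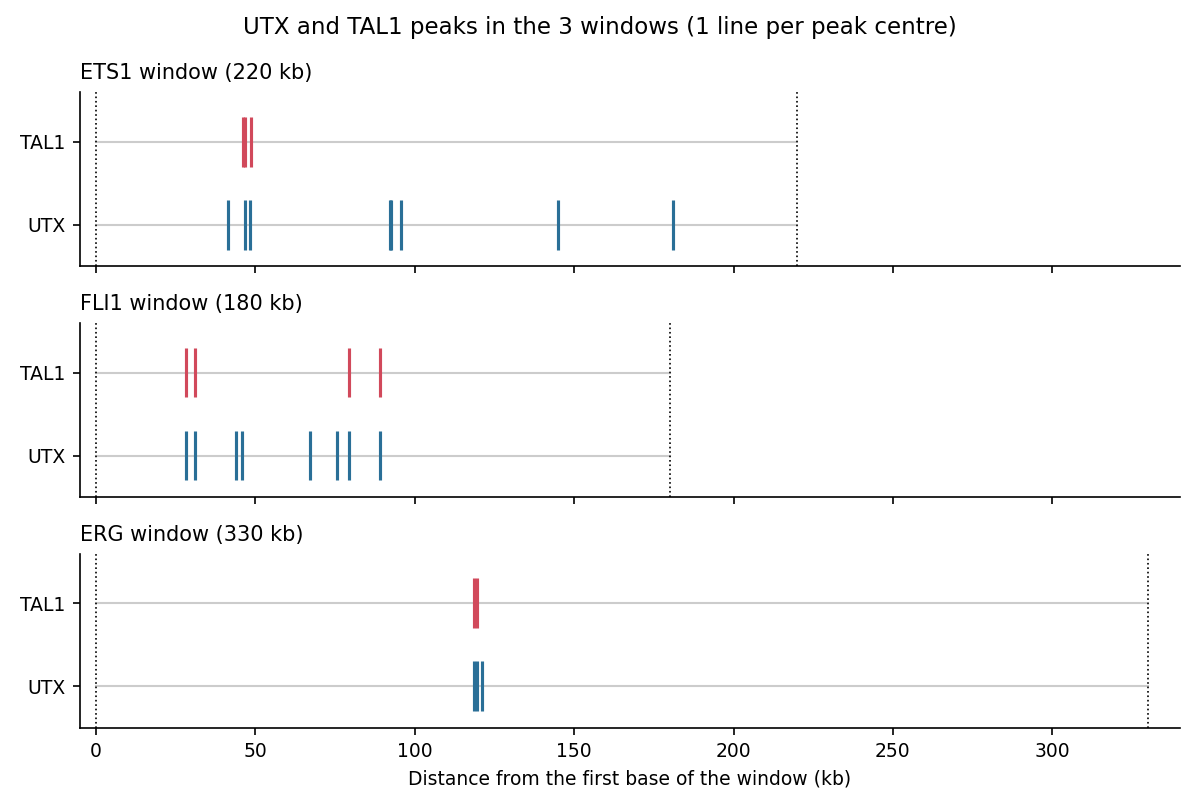
Positions of UTX (blue) and TAL1 (red) peak centres, 1 line per peak, against the distance in kb from the first base of each window (dotted lines mark the window edges). TAL1 lines occur at 1 place in the ETS1 window, at 2 places in the FLI1 window and at 1 place in the ERG window, each above UTX lines.

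In the ETS1 window, the widest UTX peak of the 3 loci carried more than 1 TAL1 peak. This UTX peak, chr11:128345994-128347105, measured 1112 bases, and 98.4% of the UTX list was narrower. It was the only one of the 19 above 1 kb, a width passed by 2.15% of the whole list. It held 2 TAL1 peaks, and 0.333% of all UTX peaks held at least 2 (58 of 17396). This share is over peaks of all widths, and the share among UTX peaks above 1 kb is not given here. The first, chr11:128346015-128346106, measured 92 bases and began 21 bases inside the left edge of the UTX peak, with its centre 489 bases from the UTX centre. The other, chr11:128346708-128346931, measured 224 bases, wider than 86.2% of the TAL1 list, and lay 174 bases from the right edge. Between these TAL1 peaks were 601 bases that belonged to UTX alone.

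The third ETS1 TAL1 peak lay in the next UTX peak to the right. This UTX peak, chr11:128348276-128348545, measured 270 bases and was separated from the wide one by 1170 bases. Its TAL1 peak, chr11:128348403-128348542, covered 140 bases, or 51.9% of it, and ended 3 bases before its right edge. A further UTX peak of 571 bases, chr11:128341091-128341661, lay 4.33 kb to the left and had no TAL1 peak. With UTX peaks no more than 10 kb apart joined into groups, these 3 formed a group of 7.46 kb in which 2 of 3 UTX peaks held TAL1.

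The rest of the ETS1 window had UTX peaks and no TAL1 peak. A second group of 3 UTX peaks spanned 3.73 kb, 43.6 kb to the right of the first. It comprised chr11:128392169-128392322 (154 bases), chr11:128392407-128392818 (412 bases) and chr11:128395316-128395902 (587 bases, wider than 87.2% of the list). The first of these was the narrowest UTX peak of the 3 loci and was parted from its neighbour by 84 bases. Gaps under 100 bases separated 1.34% of neighbouring UTX peaks in the list (233 of 17372). Single UTX peaks followed at chr11:128444671-128444858 (188 bases) and chr11:128480797-128481185 (389 bases). From the last ETS1 TAL1 peak to the right edge of the window, 171 kb held 5 UTX peaks without TAL1, at 43.6 to 96.1 kb from the nearest TAL1 peak. The longest run without a UTX peak inside the window was 48.8 kb.

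At FLI1, 4 of the 8 UTX peaks held TAL1, 1 TAL1 peak in each. The left pair lay nearest to the ETS1 side. The UTX peak chr11:128547986-128548294 measured 309 bases, and its TAL1 peak, chr11:128548023-128548262, measured 240 bases, wider than 90.0% of the TAL1 list. This was the closest match of the 3 loci: the TAL1 peak took up 77.7% of the UTX peak, and the centres were 2.5 bases apart. At a gap of 2.58 kb followed the UTX peak chr11:128550878-128551218 (341 bases) with the TAL1 peak chr11:128550897-128551027 (131 bases), which began 19 bases inside the left edge.

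The right pair was looser. The UTX peak chr11:128599034-128599407 (374 bases) held the TAL1 peak chr11:128599248-128599386 (139 bases), placed 21 bases from the right edge. The UTX peak chr11:128608860-128609094 (235 bases) held chr11:128608928-128609050 (123 bases), with centres 12 bases apart. These TAL1 peaks were 9.54 kb apart, so they just met the 10 kb distance used for joining, whereas those of the left pair were 2.63 kb apart.

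The other 4 FLI1 UTX peaks lay between the pairs. The peaks chr11:128563791-128564108 (318 bases) and chr11:128565798-128566046 (249 bases) stood 1.69 kb apart and formed a group without TAL1, 12.8 and 14.8 kb from the nearest TAL1 peak. The peaks chr11:128586820-128587215 (396 bases) and chr11:128595443-128595860 (418 bases, the widest of this window) belonged to the same 22.3 kb group as the right TAL1 pair. They lay 12.0 and 3.39 kb from TAL1. All 8 UTX peaks of this window had another UTX peak within 10 kb, against 6 of 8 at ETS1 and 3 of 3 at ERG, and against 40.9% of the whole list.

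The right part of the FLI1 window was empty in both lists. After the last UTX peak, 90.9 kb to the window edge held no peak, the longest run without UTX in this window. The next UTX peak, chr11:128701959-128702256, of 298 bases and without TAL1, lay 1.96 kb beyond the edge and so just missed the window. The next TAL1 peak on that side was 3.98 Mb from the last FLI1 TAL1 peak, a distance that 6.10% of the gaps between neighbouring TAL1 peaks reached. On the left, the first UTX peak outside the ETS1 window, chr11:128292453-128292894 (442 bases, without TAL1), was 7.11 kb from the edge, and the first TAL1 peak, chr11:128249732-128249818 (87 bases, in a UTX peak), was 50.2 kb from it. Between the ETS1 and FLI1 peaks, UTX was not called over 66.8 kb and TAL1 over 199 kb, and the border of the windows fell inside both runs.

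At ERG, UTX and TAL1 were called in 1 small place. The UTX peak chr21:39848278-39848778 measured 501 bases, wider than 80.3% of the list, and held the widest TAL1 peak of the 3 loci, chr21:39848319-39848585, of 267 bases (wider than 93.6% of its list). After 464 bases came the UTX peak chr21:39849243-39849549 (307 bases), which held the TAL1 peak chr21:39849360-39849470 (111 bases). The third UTX peak, chr21:39850819-39851050 (232 bases), had no TAL1 peak, and its nearest was 1.35 kb away.

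Around this place the ERG window was empty, with 118 kb to the left and 209 kb to the right without a peak. The empty stretch went on beyond the window. The next UTX peak to the left was 928 kb from the first ERG peak, and the next to the right, chr21:40177708-40177934 (227 bases, without TAL1), was 327 kb from the last. Of the gaps between neighbouring UTX peaks of the whole list, 3.57% were as long as the left one and 11.7% as long as the right one. The nearest TAL1 peaks outside the window were 999 kb to the left and 293 kb to the right of its edges.

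**Figure D2:**
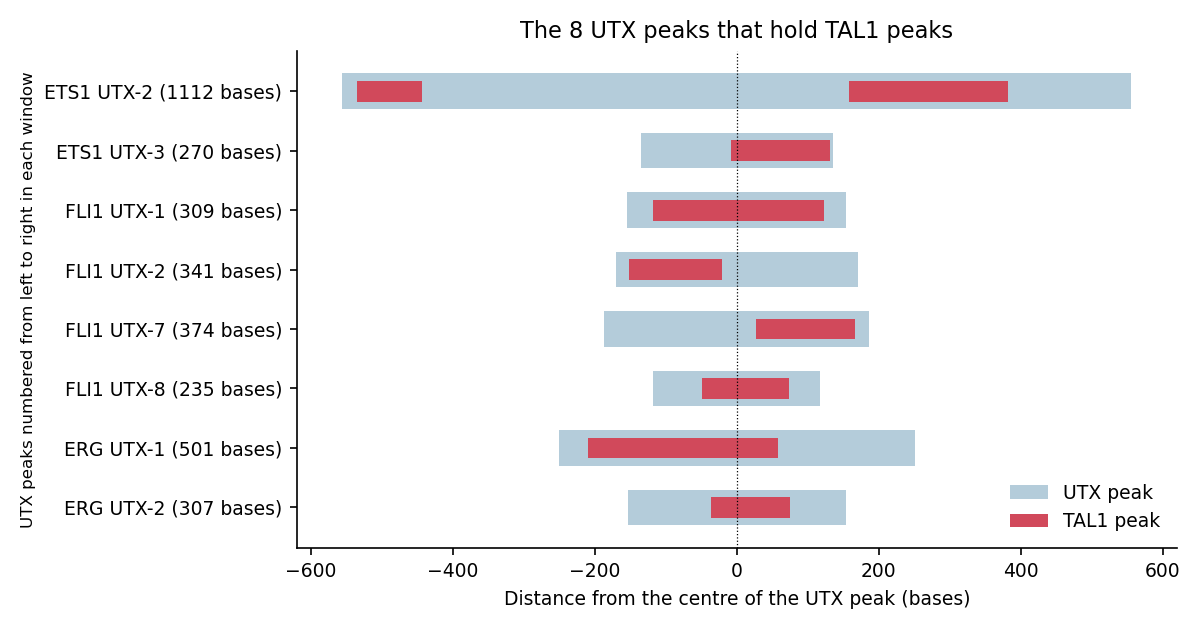
The 8 UTX peaks that hold TAL1 peaks (blue bars, numbered from left to right within each window, widths in brackets) and the 9 TAL1 peaks in them (red bars), against the distance in bases from the centre of the UTX peak. Every red bar lies inside its blue bar, and the red bars of the 1112-base ETS1 peak sit away from its centre.

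Over the 3 loci, 9 of 9 TAL1 peaks overlapped UTX (100%, 95% exact binomial interval 66.4 to 100%), where 80.8% of the whole TAL1 list did. The same 9 lay entirely inside the UTX peak, against 72.9% of the whole list. With only the wider 50% of the UTX peaks, 5 of the 9 overlapped UTX (55.6%), against 56.2% of the whole TAL1 list. Centres at the 9 shared sites were 2.5 to 489 bases apart, with a median of 76 bases, against 44.5 bases over all shared sites. The intervals here cover the counting of peaks only and take peaks as independent, which neighbours in a group are not, so nothing is read from them about differences between loci or from the whole lists.

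From the UTX side, 8 of 19 peaks held TAL1 (42.1%, exact interval 20.3 to 66.5%), against 12.1% of the whole UTX list. With only the wider 50% of the TAL1 peaks the share was 15.8% (3 of 19, interval 3.38 to 39.6%), against 7.01% of the whole list. By locus this was 2 of 8 at ETS1 (25%, interval 3.19 to 65.1%), 4 of 8 at FLI1 (50%, interval 15.7 to 84.3%) and 2 of 3 at ERG (66.7%, interval 9.43 to 99.2%). With 1 library and 3 to 8 UTX peaks a locus, the order of these shares is a description only. On the rest of chromosome 11 the share was 10.6% (97 of 914 UTX peaks), and on the rest of chromosome 21 it was 14.1% (33 of 234). Of TAL1 peaks there, 83.9% (99 of 118) and 82.5% (33 of 40) overlapped UTX. As the loci were picked with the peaks in view, the difference in the share of UTX peaks with TAL1 was not tested.

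Each TAL1 peak in these windows had another close by. The windows were picked with these positions in view and hold neighbouring peaks, so the shares below are descriptions and were not tested. All 9 had another TAL1 peak within 10 kb, which 15.1% of the whole list had, and 4 of the 9 had one within 1 kb, against 6.98%. They formed 4 groups, 1 at ETS1 with 3 peaks, 2 at FLI1 with 2 peaks each and 1 at ERG with 2. The right FLI1 pair met the 10 kb distance only narrowly, at 9.54 kb, so both the 9 of 9 and the 4 groups depend on it. Over the genome, 181 of 2454 TAL1 groups (7.38%) held 2 or more peaks, and 21 (0.856%) held 3 or more. In 143 of those 181 groups (79.0%) every TAL1 peak lay in UTX, as in the 4 groups here. The 19 UTX peaks formed 8 groups. Of the 6 groups with 2 or more UTX peaks, 4 had at least 2 UTX peaks that held TAL1, which was so in 3.83% of the 2817 such groups of the genome (108). The other 4 of the 8 groups held no TAL1. The share of all UTX groups of the genome without TAL1 is not given here. At the 10 kb joining distance, no group had exactly 1 UTX peak with TAL1. In the right FLI1 group the UTX peaks with TAL1 were 9.45 kb apart, so a joining distance below that would part them. No other distance was tried for this grouping. Of the 4 groups with 3 or more UTX peaks, 3 held TAL1, against 37.4% of the 858 such groups of the genome.

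The 11 UTX peaks without TAL1 were also near it. They lay 1.35 to 96.1 kb from the nearest TAL1 peak, with a median of 14.8 kb, whereas the UTX peaks without TAL1 of the whole list lay a median of 218 kb away. Any window that holds TAL1 peaks gives short distances, and this difference was not tested.

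The UTX peaks here ranged from wider than 2.7% to wider than 98.4% of the list, and the order of peaks with and without TAL1 varied by locus. The 19 peaks had a median of 341 bases (154 to 1112), against 320 bases in the whole list (quartiles 230 and 457), and 10 of 19 were above the list's median. UTX peaks with TAL1 had a median of 325 bases (235 to 1112, 8 peaks) and those without TAL1 a median of 389 bases (154 to 587, 11 peaks), with ranges that overlap. In the whole list the medians were 405 bases with TAL1 and 310 without. At ETS1 the median was higher with TAL1, at 691 bases (270 and 1112) against 400.5 (154 to 587), and at ERG it was 404 bases (307 and 501) against the single peak of 232. At FLI1 it was lower with TAL1, at 325 bases against 357. The TAL1 peaks had a median of 139 bases (92 to 267), against 147.5 bases in the list (quartiles 116 and 188), and 6 of 9 were narrower than the list's median. Above the list's upper quartile were 3 of the 9, against 669 of 2678 in the list: 1 in each window, at 224, 240 and 267 bases for ETS1, FLI1 and ERG. The other 6 measured 92 to 140 bases.

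**Figure D3:**
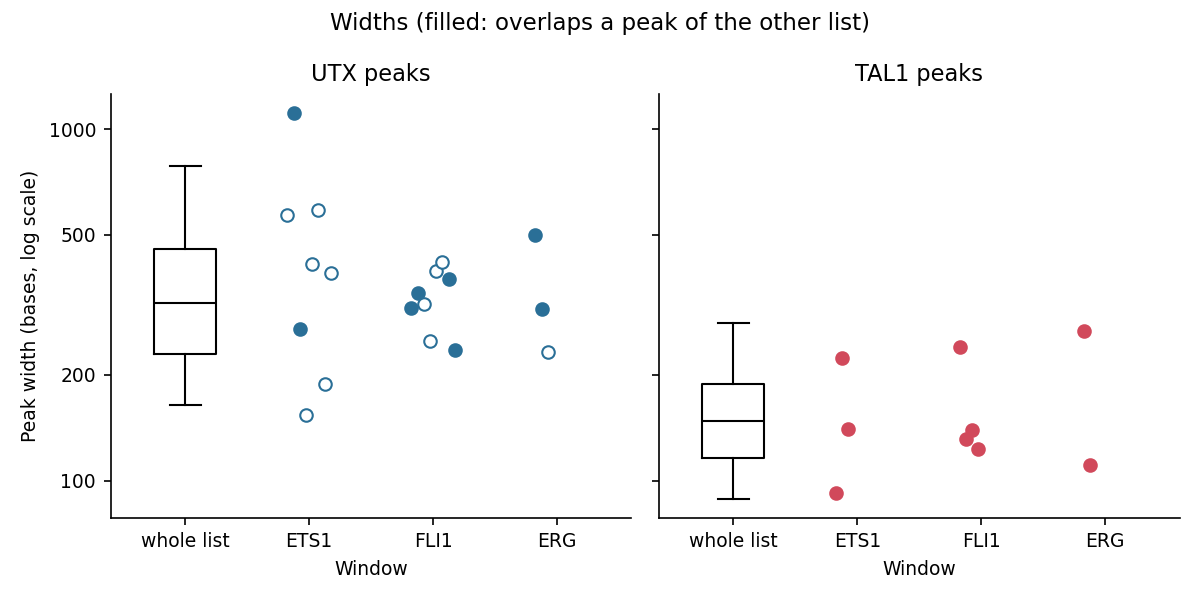
Peak widths in bases on a log axis for the whole list (box from the lower to the upper quartile with the median, whiskers at the 5th and 95th percentiles) and for each member of the 3 windows (points, filled where the peak overlaps a peak of the other list). Above the upper quartile of 188 bases were 3 of the 9 TAL1 peaks, 1 in each window, against 669 of 2678 in the list. The widest UTX peak is at ETS1.

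The 3 windows differed in how densely they were called. UTX peaks numbered 44.4 per Mb at FLI1, 36.4 per Mb at ETS1 and 9.09 per Mb at ERG, against 6.82 per Mb on the rest of chromosome 11 and 6.15 per Mb on the rest of chromosome 21. TAL1 peaks numbered 22.2, 13.6 and 6.06 per Mb in the same order of loci, against 0.880 and 1.05 per Mb. UTX peaks covered 1.67% of the ETS1 window, 1.47% of the FLI1 window and 0.315% of the ERG window, against 0.273% and 0.226% of the rest of the chromosomes. The order of ETS1 and FLI1 was reversed between peaks per Mb and bases covered: the 8 ETS1 peaks took up 3683 bases and the 8 FLI1 peaks 2640 bases. There were 2.67 UTX peaks per TAL1 peak at ETS1, 2.0 at FLI1 and 1.5 at ERG, against 7.75 and 5.85 on the rest of chromosomes 11 and 21. Windows picked with their TAL1 peaks in view tend to give high TAL1 densities and low ratios, and these differences were not tested. The ERG densities are averages over a window whose peaks all lay within 2.77 kb.

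To place these counts, each chromosome was cut into adjoining tiles of the window's length, from its first to its last peak in either list. Assembly gaps and the 3 loci themselves were included, and an incomplete last tile was left out. At least 8 UTX peaks were found in 2.16% of 13443 tiles of the ETS1 length and in 1.45% of 16432 tiles of the FLI1 length. At least 3 TAL1 peaks were found in 1.02% of the ETS1 tiles, and at least 4 in 0.189% of the FLI1 tiles. Of 8957 tiles of the ERG length, 27.9% held 3 or more UTX peaks, 6.24% held 2 or more TAL1 peaks and 5.53% held as many of both. For as many of both, the shares were 0.409% at the ETS1 length and 0.0913% at the FLI1 length. Most tiles had no TAL1 peak (85.2%, 87.5% and 79.5% for the 3 lengths). With ETS1 and FLI1 joined into 1 window of 400 kb with 16 UTX and 7 TAL1 peaks, 55 of 7389 tiles (0.744%) had as many UTX peaks, 5 (0.0677%) as many TAL1 peaks and 2 (0.0271%) as many of both. The tiles describe where the windows stand in these lists. They are not a test, since the windows were picked with the peaks in view and their edges were set around the loci while the tiles' edges were not.

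**Figure D4:**
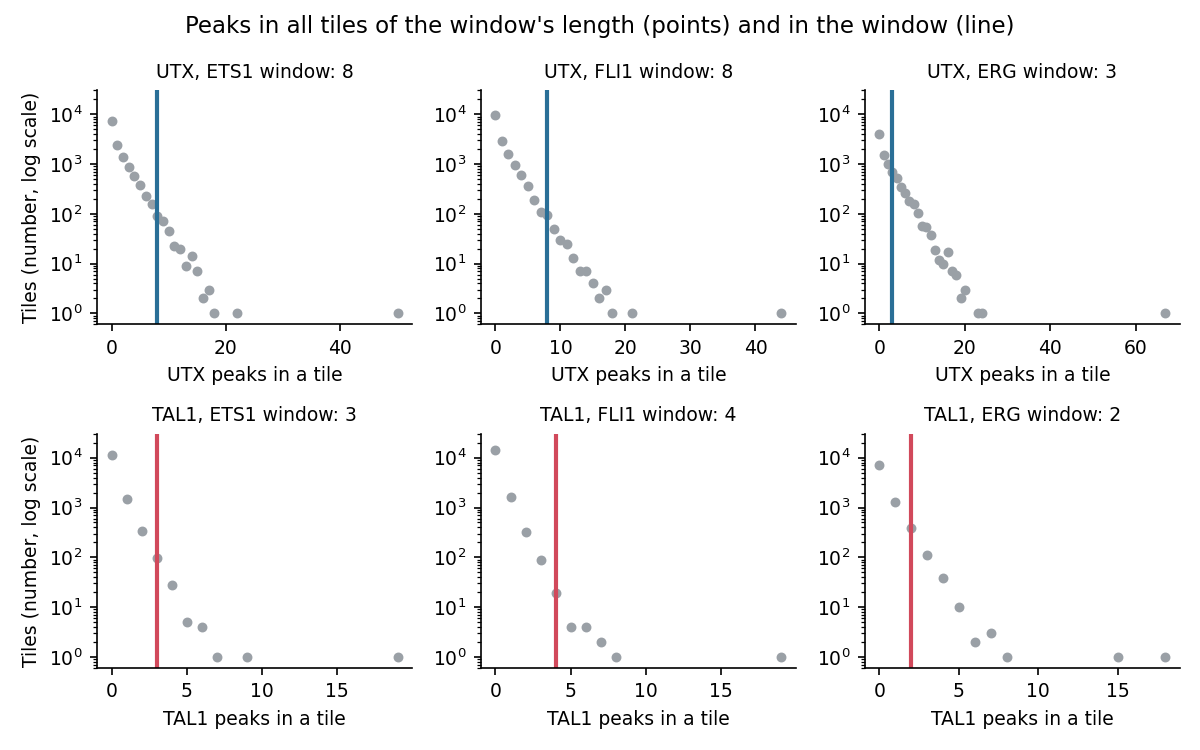
Number of tiles (log axis) against the number of UTX peaks (upper row) or TAL1 peaks (lower row) in a tile, for tiles of the length of each window (grey points), with the window's own count as a line. Tiles with at least the window's UTX count made up 2.16% for ETS1, 1.45% for FLI1 and 27.9% for ERG. For TAL1 the shares were 1.02%, 0.189% and 6.24%. In every panel some tiles held more peaks than the window, up to 50 UTX peaks at the ETS1 length.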

How the data were processed

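Members, lists and descriptions were chosen with earlier results of these data known. Per the submitters' processing notes, BWA 0.6.2, SAMtools 0.1.18 and MACS2 2.0.10 were used with hg19; their order, the peak threshold, filters and whether the mock served as a control are not stated there, and nor is how the TAL1 list was called. Each deposited list has 3 columns, chromosome, start counted from 0 and end, with no score or count, so neither depth nor precision from depth can be given. Positions are printed counted from 1.

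A peak was shared with at least 1 base in common, checked against bedtools 2.31.1 and on simulated intervals. Python 3.11.15 with numpy 2.4.6 and scipy 1.17.1 was used. A gap counts the bases between neighbouring edges, and the rest of a chromosome runs from its first to its last peak outside the windows. Each group has 1 library, so no test between samples was made. By the rule for named sites, every TAL1 peak, the UTX peaks that hold them, the widest 3 UTX peaks of each window, the longest runs without UTX and the peaks nearest to the window edges are named; the remaining UTX peaks are few and are given too. Placement by gene, the lists of other ETS and blood factor genes, and motifs were not analysed here, for want of hg19 gene models and bases. The tiles, the rest of the chromosomes, the other settings, the overlap rules and the longest run without UTX in each window were planned. The grouping across 10 kb, the other runs without peaks, the comparison of runs with all gaps of a list and the distances were added later.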

Additional observations from a re-analysis of the deposited data

How the results depend on the processing

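Of 24 values computed for 6 results under other settings, 20 moved little: shares and the median width stayed inside the 95% interval of the reported value, and densities and covered shares within 1.5 times. The 4 that moved all came from keeping only the wider 50% of a list, in which fewer peaks remain. Staying inside these wide intervals says little. Every TAL1 peak of the windows lay inside a UTX peak, so asking for 50% of the shorter peak, or for peaks within 1 kb, could not change 9 of 9. With the wider UTX peaks the median width was 415 bases, below the list's 458. As reported it was 341 bases, above the list's 320. With the wider UTX peaks, 5 of 9 TAL1 peaks of the windows overlapped UTX (55.6%), beside 56.2% of the whole TAL1 list under that setting, and UTX density was 13.7 per Mb, beside 2.93 over the genome. With the wider TAL1 peaks, 3 of 19 UTX peaks held TAL1 (15.8%, interval 3.38 to 39.6%), beside 7.01% of the whole UTX list, and TAL1 density was 4.11 per Mb, beside 0.452 over the genome. Widening the windows by 50 kb added 2 UTX peaks and no TAL1 peak, and joining peaks within 1 kb left 17 UTX and 7 TAL1 peaks. No paired analysis was possible because there is 1 library a group. Without scores or read counts, what each list missed for lack of depth is unknown, and no other setting of the peak caller could be tried.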
